A study of Mus musculus with 9 samples.

Results

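The 10 genes described here encode the enzymes that clear ethanol and aldehydes: the alcohol dehydrogenases Adh1 and Adh5, the cytochrome P450 Cyp2e1, the aldehyde reductase Akr1a1, and the aldehyde dehydrogenases Aldh1b1, Aldh2, Aldh3a2, Aldh3b1, Aldh7a1 and Aldh9a1. They were chosen by name for this role, and each had exactly 1 row in the deposited table of 55335 genes. Of the 10 genes, 6 reached 1 FPKM in at least 3 libraries and were tested, namely Adh5, Akr1a1, Aldh2, Aldh3a2, Aldh3b1 and Aldh9a1. FPKM scales fragments to the transcript's length and the library's size, so levels can be compared between genes.

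The 9 bulk RNA-seq libraries came from mouse peritoneal macrophages, the phagocytes of the abdominal cavity. Every culture was stimulated with 1 µg/mL of lipopolysaccharide (LPS), a bacterial ligand of the receptor TLR4, for 4 h. The LPS group had no further agent, the LPS+EtOH group also had 5% ethanol, and the LPS+CPZ group also had 100 µM CPZ, an agent whose full name the labels do not state. Each group had 3 libraries, each pooled from 3 RNA samples, and the labels do not say whether these were separate animals, so p-values measure only the spread between pools. Strain, sex and age are not given in the sources used here. Cells without LPS, and cells given ethanol or CPZ alone, were not analysed here, so every group carries the LPS response.

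Ethanol is cleared in steps. In the liver, alcohol dehydrogenase oxidises it to acetaldehyde in the cytosol, with CYP2E1 in the endoplasmic reticulum and catalase in peroxisomes as further routes. Aldehyde dehydrogenases, above all the mitochondrial ALDH2, then oxidise the reactive acetaldehyde to acetate, which other enzymes couple to coenzyme A. Other members of the family clear aldehydes made by the cell itself, from lipid peroxidation, amino acids or formaldehyde.

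Total FPKM ranged from 302126 to 363356 per library, and the 4 adult globin genes took 11.5 to 29.4% of it in LPS and at most 0.221% in the treated libraries. Whole multiples of 1 fragment, within 2%, accounted for just 38.1 to 40.6% of low values, so fragment counts were not recovered and no counting error is given. Of 10 macrophage genes 9 were tested, and they differed in direction: 3 rose and 5 fell in LPS+EtOH against LPS, and 2 rose and 6 fell in LPS+CPZ. Of all tested genes 19.0% rose and 64.6% fell in LPS+EtOH, and 20.7% and 48.4% did so in LPS+CPZ. Adgre1, which encodes F4/80, ranged from 134 to 150.1 FPKM in the LPS group, from 81.9 to 99.8 with ethanol and from 79.0 to 105 with CPZ. The complement gene C1qa averaged 19.9, 0.706 and 6.48 FPKM in that order, the lysosomal gene Cd68 55.5, 363 and 405, and the receptor gene Mertk was at most 0.0509 with ethanol and 0.316 elsewhere. Summed over 10 neutrophil markers, FPKM was 3857 to 5428 without either agent, 43752 to 48329 with ethanol and 6384 to 6890 with CPZ. The sum of 8 B cell markers was 505 to 761, 39.7 to 60.9 and 156 to 205 FPKM in the same order, and that of 10 markers of large peritoneal macrophages was 671 to 835, 96.3 to 110.2 and 115 to 157 FPKM. In bulk RNA, fewer cells of a type and less RNA per cell cannot be told apart. Of the 11721 genes tested with limma, 83.6% passed an adjusted p of 0.05 in LPS+EtOH against LPS, 69.2% in LPS+CPZ against LPS and 76.6% in LPS+CPZ against LPS+EtOH. Over all tested genes the median log2 change was -0.82, -0.33 and 0.55 in these comparisons on the deposited scale. Under median-ratio scaling, which sets the libraries' typical gene equal, it was -0.01, -0.06 and 0.04. With that scaling 5 macrophage genes rose and 3 fell in LPS+EtOH against LPS, where 39.9% and 40.1% of all tested genes did. In LPS+CPZ against LPS 3 rose and 5 fell, where 28.6% and 32.5% of all tested genes did.

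Adh1 and Cyp2e1, which oxidise ethanol in the liver, were near or at 0 in these cells, whereas catalase was not. Adh1 (ENSMUSG00000074207), the class I alcohol dehydrogenase, stood at 0.0818, 0.0114 and 0.0831 FPKM with LPS alone and was listed at 0 in all 6 treated libraries. Cyp2e1 (ENSMUSG00000025479), the ethanol-inducible cytochrome P450, stood at 0.0321, 0 and 0.0581 FPKM in LPS and was also listed at 0 in the 6 others. A listed 0 can be a failed estimate, so no fold is given for either gene. In the same LPS libraries the albumin gene Alb, a hepatocyte marker, stood at 1.85, 0.205 and 3.31 FPKM, lowest in the replicate where Adh1 was lowest and Cyp2e1 was listed at 0. Alb was listed at 0 in every treated library, and the 6 hepatocyte markers summed to 0.304 to 4.91 FPKM in LPS and to at most 0.271 and 0.146 in LPS+EtOH and LPS+CPZ. The part of liver transcripts in these traces was not tested. The alcohol dehydrogenase genes Adh4, Adh6a, Adh6b and Adh7 did not reach the level for testing either.

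Adh5 (ENSMUSG00000028138), the class III enzyme that oxidises formaldehyde bound to glutathione and reduces S-nitrosoglutathione, was the only alcohol dehydrogenase among the 10 genes with a level above 1 FPKM. It stood at 4.12, 5.13 and 4.47 FPKM with LPS alone, 1.80, 1.25 and 1.44 with ethanol and 4.38, 5.02 and 5.26 with CPZ. All LPS+EtOH values lay below all others, while LPS and LPS+CPZ overlapped. Against LPS, Adh5 fell in LPS+EtOH (log2 fold change -1.16 ± 0.13 SE, limma adjusted p = 7.26e-06), to 0.327 times the mean. Its change lay 0.34 below the median of all genes, and under quantile scaling the gene missed the threshold (log2 fold change -0.17, limma adjusted p = 0.139). In LPS+CPZ against LPS its log2 change of 0.08 had a 95% interval of -0.20 to 0.36 (limma adjusted p = 0.591), and it passed as a rise of 0.36 under median-ratio scaling and of 0.45 under quantile scaling, but turned to -0.23 with globin genes left out of the scaling.

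Akr1a1 (ENSMUSG00000028692), an NADPH-dependent reductase that turns aldehydes into alcohols, was the most abundant of the 10 genes in every group. Its values were 38.7, 40.5 and 37.9 FPKM with LPS alone, 43.7, 35.4 and 47.5 with ethanol and 109, 109 and 130.5 with CPZ. The LPS and LPS+EtOH ranges overlapped, and every LPS+CPZ library was higher than any of them. In LPS+CPZ it rose 2.97-fold over LPS (log2 fold change 1.54 ± 0.13, limma adjusted p = 4.55e-06) and 2.75-fold over LPS+EtOH (1.44 ± 0.13, limma adjusted p = 6.84e-06), the latter change being 0.63 under median-ratio scaling. In LPS+EtOH against LPS its log2 change was 0.10 with a 95% interval of -0.20 to 0.40 (limma adjusted p = 0.502), and it became a rise of 1.26 under median-ratio scaling and -0.31 with globin genes left out of the scaling (limma adjusted p = 0.0539).

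Aldh2 (ENSMUSG00000029455), the mitochondrial enzyme that clears most acetaldehyde, was the most abundant aldehyde dehydrogenase of the 6 in LPS and in LPS+CPZ. It stood at 17.7, 17.6 and 21.2 FPKM with LPS alone, 11.9, 14.2 and 15.3 with ethanol and 34.5, 33.1 and 37.9 with CPZ, and no pair of groups overlapped. On the deposited scale it fell in LPS+EtOH to 0.733 times the LPS mean (log2 fold change -0.42 ± 0.13, limma adjusted p = 0.00988), but this direction turned under median-ratio scaling (0.70, limma adjusted p = 0.000925) and was 0.038 under quantile scaling (limma adjusted p = 0.802). It rose 1.87-fold in LPS+CPZ over LPS (log2 fold change 0.87 ± 0.13, limma adjusted p = 0.000156) and 2.54-fold over LPS+EtOH (1.29, limma adjusted p = 9.79e-06), and both passed under every scaling tried, although the second was 0.50 under median-ratio scaling.

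Aldh1b1 (ENSMUSG00000035561), a second mitochondrial enzyme that accepts acetaldehyde, was expressed far below Aldh2. It stood at 1.91, 0.884 and 1.06 FPKM with LPS alone, 0.181, 0.0848 and 0.172 with ethanol and 0.417, 0.550 and 0.355 with CPZ. The 3 groups did not overlap, but only 2 libraries reached 1 FPKM, so the gene was not among those tested. In a fit of all 33417 genes with any value above 0 its log2 change was -0.97 in LPS+EtOH (limma adjusted p = 0.00137) and -0.64 in LPS+CPZ (limma adjusted p = 0.0173) against LPS, where 41.8% and 30.8% of genes passed.

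**Figure D1:**
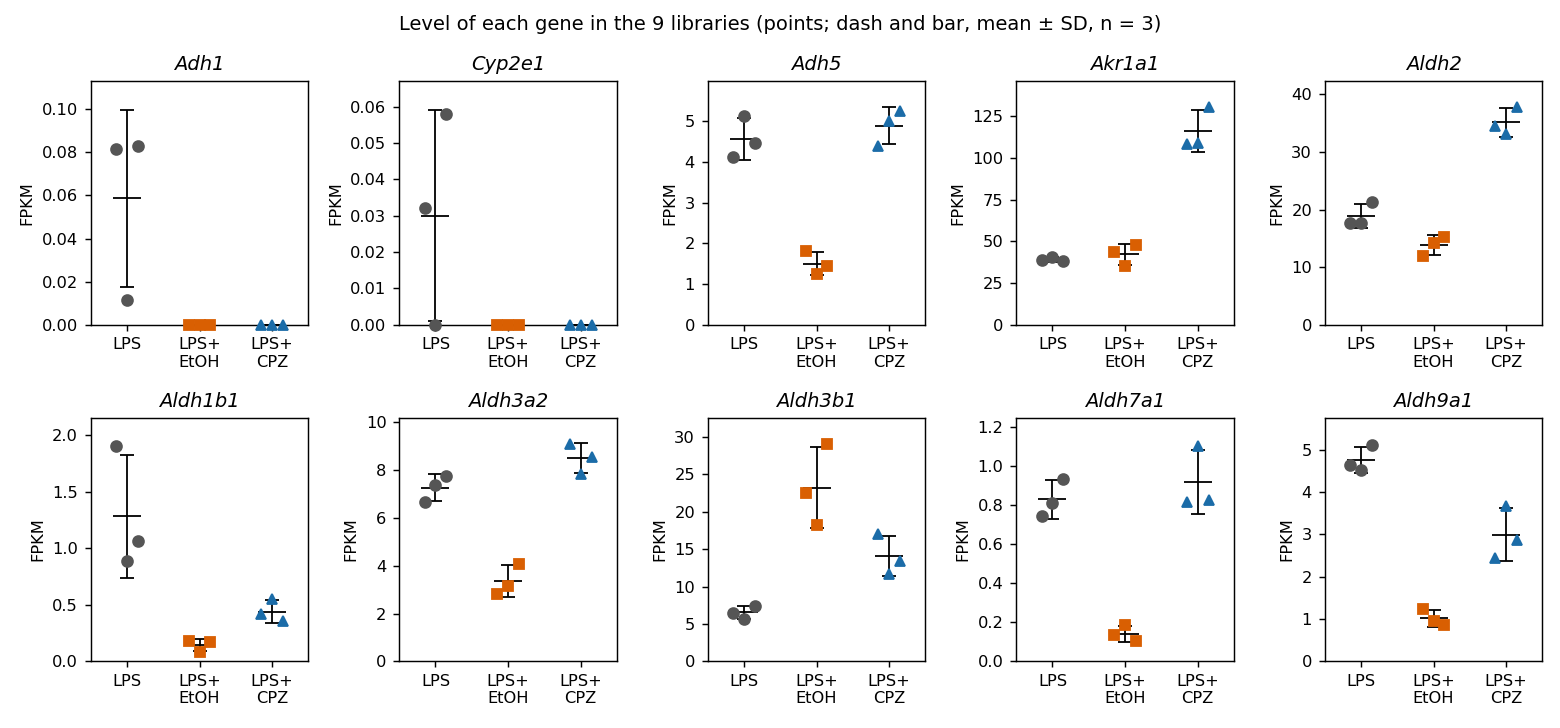
FPKM of the 10 genes in each library, 1 panel per gene with its own axis from 0; points are libraries, dashes and bars the mean ± SD of 3. Adh5, Aldh1b1, Aldh3a2, Aldh7a1 and Aldh9a1 are lowest in LPS+EtOH, Akr1a1 and Aldh2 are highest in LPS+CPZ, and Aldh3b1 is highest in LPS+EtOH at 18.2 to 29.0 FPKM.

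The ALDH3 enzymes Aldh3a2 and Aldh3b1 moved in opposite directions in LPS+EtOH on the deposited scale, although the fall of Aldh3a2 did not pass under median-ratio or quantile scaling. Aldh3b1 (ENSMUSG00000024885), which oxidises medium and long-chain aldehydes formed by lipid peroxidation, stood at 6.52, 5.71 and 7.43 FPKM with LPS alone, 22.4, 18.2 and 29.0 with ethanol and 17.0, 11.7 and 13.5 with CPZ. The 3 groups were separate, with LPS+EtOH highest. It rose 3.54-fold in LPS+EtOH over LPS (log2 fold change 1.66 ± 0.18, limma adjusted p = 8.17e-06) and 2.15-fold in LPS+CPZ (0.99 ± 0.18, limma adjusted p = 0.000736), and it was lower in LPS+CPZ than in LPS+EtOH (-0.68 ± 0.18, limma adjusted p = 0.00644). These 3 directions and calls held under all the scalings tried, with log2 changes in LPS+EtOH of 1.28 to 2.75. All 10 neutrophil markers also rose in LPS+EtOH against LPS, where 19.0% of all tested genes rose. In LPS+CPZ 3 of the markers rose and 3 fell, where 20.7% of all tested genes rose and 48.4% fell. Among the markers Ly6g averaged 16.9, 156 and 274 FPKM with LPS alone, ethanol and CPZ, and S100a8 995, 9141 and 2752 FPKM. S100a9, which with S100a8 makes up most of the summed level, averaged 3369, 33420 and 3208 FPKM in that order. Csf3r averaged 161, 358 and 101 FPKM, Cxcr2 11.3, 38.8 and 3.81, and Ltf 4.32, 12.3 and 1.40. The part of neutrophil transcripts in the Aldh3b1 levels was not tested. Of the distinct 50-base stretches in Aldh3b1 transcripts 8.97% also occur in its paralogs Aldh3b2 and Aldh3b3, which were listed at no more than 0.0569 FPKM in any library.

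Aldh3a2 (ENSMUSG00000010025) encodes the fatty aldehyde dehydrogenase of the endoplasmic reticulum, which oxidises long-chain aldehydes from lipid breakdown. It stood at 6.65, 7.38 and 7.75 FPKM with LPS alone, 2.81, 3.16 and 4.09 with ethanol and 9.08, 7.83 and 8.53 with CPZ. All LPS+EtOH values were below all others, and the LPS+CPZ values lay just above those of LPS. It fell in LPS+EtOH against LPS on the deposited scale (log2 fold change -0.93 ± 0.13, limma adjusted p = 5.18e-05), but was 0.055 under median-ratio scaling (limma adjusted p = 0.721) and -0.04 under quantile scaling (limma adjusted p = 0.803). In LPS+CPZ against LPS the log2 change was 0.20, with a 95% interval of -0.09 to 0.49 (limma adjusted p = 0.196). It passed as a rise of 0.50 under median-ratio scaling and of 0.54 under quantile scaling, and was -0.13 with globin genes left out of the scaling (limma adjusted p = 0.381).

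The aminoaldehyde enzymes were also low in LPS+EtOH. Aldh9a1 (ENSMUSG00000026687), which acts on aminoaldehydes in carnitine and GABA synthesis, stood at 4.64, 4.53 and 5.11 FPKM with LPS alone, 1.24, 0.947 and 0.860 with ethanol and 2.44, 3.67 and 2.87 with CPZ. The 3 groups did not overlap, with LPS highest. It fell in LPS+EtOH to 0.214 times the LPS mean (log2 fold change -1.52 ± 0.14, limma adjusted p = 1.66e-06), a fall under every scaling tried (-2.01 to -0.56). It fell in LPS+CPZ as well (-0.54 ± 0.14, limma adjusted p = 0.00473), but missed the threshold under median-ratio and quantile scaling (-0.24 and -0.17).

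Aldh7a1 (ENSMUSG00000053644), the antiquitin gene of lysine breakdown, stood at 0.742, 0.810 and 0.936 FPKM with LPS alone, 0.135, 0.185 and 0.106 with ethanol and 0.816, 1.10 and 0.827 with CPZ. LPS+EtOH was separate from and below the other groups, which overlapped. Only 1 library reached 1 FPKM, and the gene was not among those tested. In the fit of all genes with any value above 0 its log2 change was -0.68 in LPS+EtOH (limma adjusted p = 0.00048) and 0.06 in LPS+CPZ (limma adjusted p = 0.667) against LPS. Of its exon bases 9.19% overlap genes on the opposite strand, among them Phax, and whether the authors' counting used strand is not given in the sources used here.

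**Figure D2:**
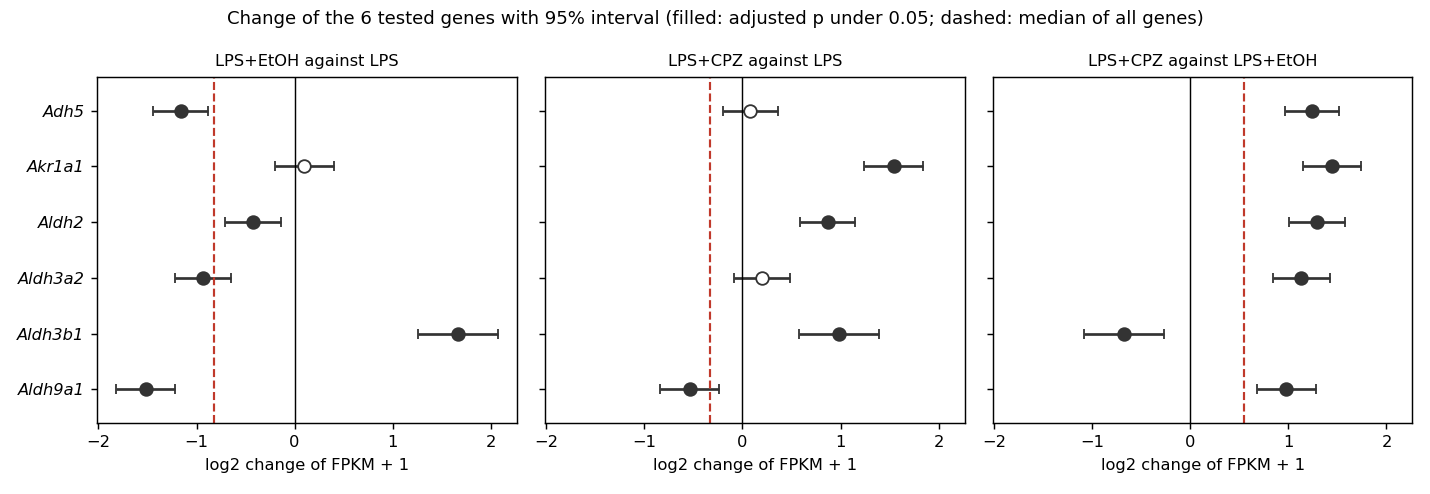
Log2 change of FPKM + 1 for the 6 tested genes in the 3 comparisons, with 95% intervals from limma; filled points have an adjusted p under 0.05 and the dashed line is the median of all 11721 tested genes. In LPS+EtOH against LPS only Aldh3b1 lies to the right of 0 among filled points, and in LPS+CPZ against LPS+EtOH only Aldh3b1 lies to the left.

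By count, 4 of the 6 tested genes fell and 1 rose in LPS+EtOH against LPS, where 64.6% of all tested genes fell and 19.0% rose. Their median log2 change was -0.68, against -0.82 for all genes. With median-ratio scaling the split was 3 higher and 2 lower, against 39.9% and 40.1% of all genes, and with quantile scaling only Aldh3b1 and Aldh9a1 passed, against 75.0% of all genes. In LPS+CPZ against LPS 3 rose and 1 fell, with a median of 0.53, where 20.7% of all genes rose and 48.4% fell, and with median-ratio scaling 5 rose and none fell, against 28.6% and 32.5%. In LPS+CPZ against LPS+EtOH 5 were higher and 1 lower, with a median of 1.19, and this split was the same under every scaling tried. Adh5 was 3.27-fold, Aldh9a1 2.94-fold and Aldh3a2 2.53-fold higher with CPZ than with ethanol (log2 changes of 1.24, 0.98 and 1.13, with limma adjusted p = 1.14e-05, 8.43e-05 and 2.51e-05). Under median-ratio scaling these log2 changes were smaller, at 0.67, 0.48 and 0.45, and that of Aldh3b1 was -1.47. There 61.4% of all genes were higher and 15.2% lower, or 33.9% and 33.0% under median-ratio scaling. The groups did not overlap for 5 of the 6 genes in LPS+EtOH against LPS, 5 in LPS+CPZ against LPS and all 6 in LPS+CPZ against LPS+EtOH, against 84.8%, 72.9% and 79.0% of all tested genes. The comparisons share libraries, so these counts are not independent of each other.

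**Figure D3:**
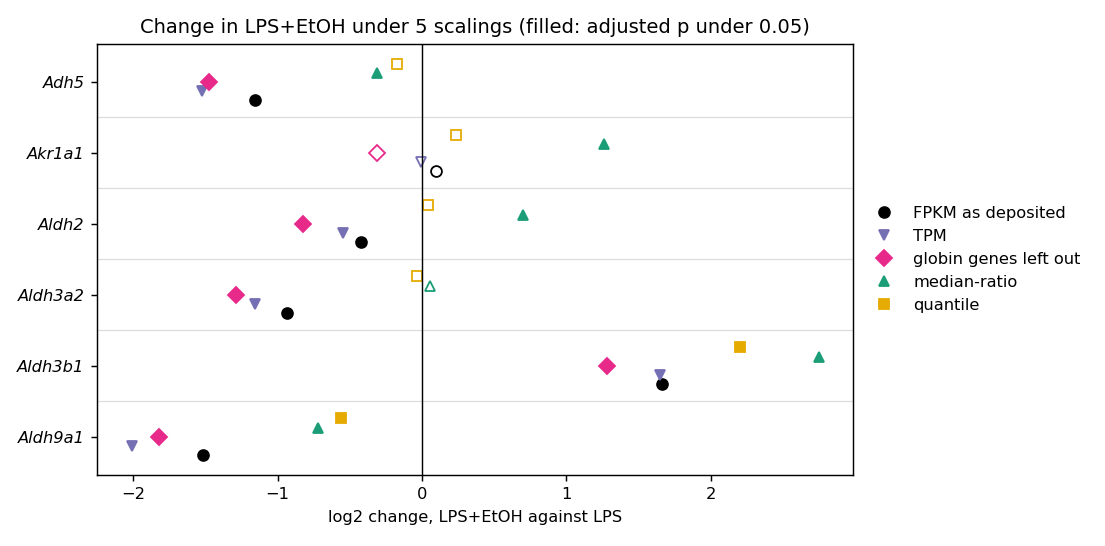
Log2 change in LPS+EtOH against LPS for the 6 tested genes under 5 scalings of the libraries; filled symbols have a limma adjusted p under 0.05. Aldh3b1 stays to the right of 0 and Aldh9a1 to the left under all 5, whereas Aldh2 runs from -0.82 to 0.70.

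Because every scaling used here other than quantile scaling multiplies all values of a library alike, ratios between genes of 1 library do not depend on it. The ratios, with Aldh2 as the common denominator, were chosen after the values were seen, so they are given as a description with no test. The ratio of Aldh3b1 to Aldh2 was 0.348 ± 0.0229 (SD, n = 3) with LPS alone, 1.69 ± 0.352 with ethanol and 0.401 ± 0.0803 with CPZ. LPS+EtOH stood apart from both other groups, and those overlapped. In LPS+EtOH Aldh3b1 was the most abundant aldehyde dehydrogenase of the 6, at 27.0 ± 2.34% of the summed FPKM of the 10 genes, against 7.86 ± 0.873% in LPS and 7.72 ± 1.64% in LPS+CPZ.

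Relative to Aldh2, the genes Aldh3a2, Aldh9a1 and Adh5 were lower in both treated groups than in LPS. On the deposited scale Aldh2 itself rose 1.87-fold in LPS+CPZ, where Adh5 overlapped LPS and Aldh3a2 lay just above it. The ratio of Aldh3a2 to Aldh2 was 0.387 ± 0.0282 with LPS alone, 0.242 ± 0.0231 with ethanol and 0.242 ± 0.0195 with CPZ. That of Aldh9a1 to Aldh2 was 0.253 ± 0.0114, 0.0757 ± 0.0253 and 0.0858 ± 0.0221, and that of Adh5 to Aldh2 was 0.245 ± 0.0414, 0.111 ± 0.0350 and 0.139 ± 0.0124. In all 3 ratios LPS was separate from the treated groups, which overlapped each other. The ratio of Akr1a1 to Aldh2 was 2.09 ± 0.271 with LPS alone, 3.09 ± 0.589 with ethanol and 3.30 ± 0.147 with CPZ, higher in both treated groups.

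**Figure D4:**
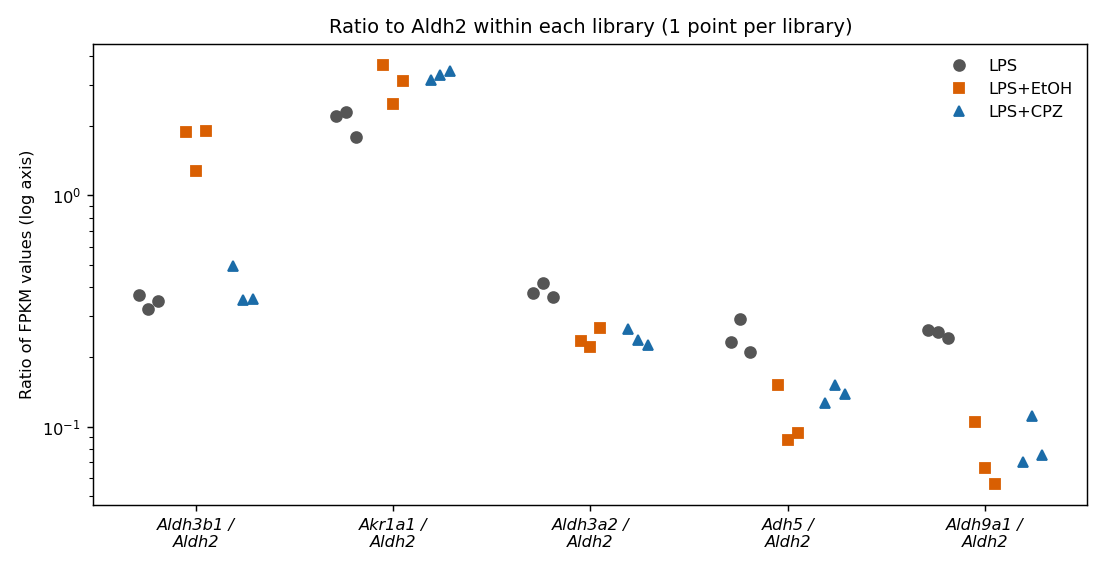
Ratio of the FPKM of 5 genes to that of Aldh2 within each library, on a log axis, with 1 point per library. For Aldh3b1 the LPS+EtOH libraries stand alone at 1.28 to 1.90, and for the other genes the LPS+EtOH and LPS+CPZ libraries overlap.

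The order of the levels also differed between groups. In LPS it was Akr1a1, Aldh2, Aldh3a2, Aldh3b1, Aldh9a1, Adh5, Aldh1b1, Aldh7a1, Adh1 and Cyp2e1, and the neighbours Aldh3a2 and Aldh3b1, Aldh9a1 and Adh5, Aldh1b1 and Aldh7a1, and Adh1 and Cyp2e1 overlapped. In LPS+EtOH Aldh3b1 moved to rank 2, above Aldh2 in all libraries of that group. In LPS+CPZ it was at rank 3, between Aldh2 and Aldh3a2, with no overlap. On the deposited scale the summed FPKM of the 10 genes was 83.2 ± 2.55 with LPS alone, 85.4 ± 12.5 with ethanol and 183 ± 14.7 with CPZ. Akr1a1 took 47.0, 49.4 and 63.3% of it on average. The sum depends on the scaling, since the log2 change of Akr1a1 in LPS+EtOH against LPS was 0.10 as deposited and 1.26 under median-ratio scaling. Among tested genes without Gm or Rik names, the log2 values of Eno1b (Pearson r = 0.995), Ankrd37 (0.995) and Pfkl (0.994) followed Akr1a1 most closely. The 9 libraries behind these correlations share their groups and scaling. Pfkl, a glycolytic phosphofructokinase gene, stood at 6.44 ± 0.362, 6.93 ± 1.28 and 88.5 ± 5.79 FPKM.

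Promoter sequences are shown for the genes that marked the groups most clearly: Akr1a1, highest in LPS+CPZ, Aldh3b1, highest in LPS+EtOH, and Aldh9a1, lowest in LPS+EtOH. They are the 250 bases before the RefSeq start site, in build GRCm38.p6, read 5′ to 3′ on the gene's strand, at chr4:116651675-116651924 (minus strand), chr19:3929779-3930028 (minus strand) and chr1:167349741-167349990 (plus strand). Capitals mark matches to TGACNNNGC, the core of the antioxidant response element bound by NRF2, searched on both strands.
Akr1a1: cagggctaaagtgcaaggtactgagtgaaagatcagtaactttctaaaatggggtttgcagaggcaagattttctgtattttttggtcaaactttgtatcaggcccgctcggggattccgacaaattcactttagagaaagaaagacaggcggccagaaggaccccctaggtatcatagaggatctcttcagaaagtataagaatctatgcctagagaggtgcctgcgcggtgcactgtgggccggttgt
Aldh3b1: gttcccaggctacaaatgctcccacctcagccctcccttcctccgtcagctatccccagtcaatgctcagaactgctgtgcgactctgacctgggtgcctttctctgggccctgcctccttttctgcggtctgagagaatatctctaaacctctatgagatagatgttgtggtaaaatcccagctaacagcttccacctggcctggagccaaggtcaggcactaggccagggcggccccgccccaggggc
Aldh9a1: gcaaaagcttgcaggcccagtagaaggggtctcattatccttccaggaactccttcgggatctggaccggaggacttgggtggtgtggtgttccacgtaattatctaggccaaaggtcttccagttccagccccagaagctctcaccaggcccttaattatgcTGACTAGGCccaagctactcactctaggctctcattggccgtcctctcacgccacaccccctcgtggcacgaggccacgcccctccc

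RefSeq promoters were found for 8 of the 10 genes, 9 in all, and Aldh2 and Aldh7a1 had none in the table. The TGACNNNGC core matched 1 of the 9, the Aldh9a1 promoter 87 bases before the start, against 10.2% of 32851 promoters of the same length. The heat shock element core GAANNTTC matched only Adh1, and the E-box CACGTG only Aldh3a2, against 6.69% and 6.02% of all promoters. The letters TGANTCA of the AP-1 site were in none of the 9 windows, against 6.75% of all. The CCAAT box, searched as CCAAT on both strands, was in 3 of the 9 (Aldh9a1, Cyp2e1 and Aldh3a2) and in 33.9% of all. A match describes letters only and is no evidence of binding.

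Of 20 further alcohol and aldehyde dehydrogenase genes 6 reached the level for testing. Aldh1a1 and Aldh1l2 reached it through the LPS group alone, which by itself sets them lower in the treated groups, so no count or median of the 6 is given. Aldh18a1, which makes the proline precursor pyrroline-5-carboxylate, fell from 34.6 ± 5.98 FPKM with LPS alone to 1.27 ± 0.227 with ethanol (log2 fold change -3.96 ± 0.16, limma adjusted p = 2.95e-08) and fell less in LPS+CPZ (-1.63 ± 0.16, limma adjusted p = 9.17e-06). Aldh1a2, a retinoic acid synthesis gene, stood at 3.65 ± 0.42, 0.156 ± 0.0683 and 2.55 ± 0.657 FPKM. Aldh1a1, its cytosolic relative, stood at 2.05, 1.28 and 5.68 FPKM with LPS alone and at no more than 0.00741 in the others. Its LPS values were lowest in replicate 2 and highest in replicate 3, as were the globin share (16.7, 11.5 and 29.4%) and Alb, whose part in them was not tested.

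Of 21 further carbonyl and aldo-keto reductase genes 12 reached the level for testing. Akr1c18 and Dhrs7b reached it only with the help of the LPS libraries, and Akr7a5 only with that of the LPS+CPZ libraries. That by itself favours higher values in those groups, so no count or median of the 12 is given. Ptgr1, a reductase of lipid alkenals, rose from 6.70 ± 1.92 FPKM with LPS alone to 23.2 ± 10.2 with ethanol (log2 fold change 1.60, limma adjusted p = 0.000319) and stood at 316 ± 53.0 in LPS+CPZ. The carbonyl reductase gene Cbr3 stood at 0.972 ± 0.520, 3.01 ± 0.762 and 8.55 ± 1.19 FPKM, a rise in LPS+EtOH (1.04, limma adjusted p = 0.000629). Dhrs11, a short-chain dehydrogenase gene, rose in LPS+EtOH from 5.84 ± 1.62 to 9.05 ± 1.10 FPKM (0.57, limma adjusted p = 0.00989).

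Catalase, the peroxisomal enzyme that can oxidise ethanol at the expense of hydrogen peroxide, had a higher level than Adh1 and Adh5 in every library. Cat stood at 19.4, 15.5 and 23.4 FPKM with LPS alone, 11.7, 9.16 and 15.1 with ethanol and 110.5 ± 8.31 with CPZ. On the deposited scale it fell in LPS+EtOH against LPS (log2 fold change -0.66, limma adjusted p = 0.00682), and under median-ratio scaling it rose (0.46, limma adjusted p = 0.0378). In LPS+CPZ it rose under both (2.46 and 2.80).

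Downstream of the aldehyde dehydrogenases, 5 of 7 tested acetate and acetyl-CoA genes fell and 1 rose in LPS+EtOH, or 4 and 2 with median-ratio scaling, against 64.6% and 19.0% of all tested genes, or 40.1% and 39.9%. Their median log2 change was -1.39, against -0.82 for all genes. Acss1, which activates acetate in mitochondria, fell from a mean of 7.83 ± 1.79 FPKM to 0.0880 ± 0.0222 (limma adjusted p = 6.06e-08) and stood at 1.64 ± 0.309 in LPS+CPZ. Acss2, its cytosolic counterpart, stood at 1.09 ± 0.133, 0.570 ± 0.197 and 4.00 ± 1.10 FPKM, a fall in LPS+EtOH on the deposited scale only. Acss2 reached the level for testing only with the help of the LPS+CPZ libraries. That by itself favours a rise there, so no call is given for CPZ. Acly, which makes cytosolic acetyl-CoA from citrate, fell from 28.3 ± 1.44 to 5.53 ± 1.25 FPKM in LPS+EtOH (-2.18, limma adjusted p = 2.20e-07). The monocarboxylate carrier genes Slc16a1 and Slc16a3 moved apart: Slc16a1 fell from 12.5 ± 3.53 to 1.92 ± 0.348 FPKM and Slc16a3 rose from 26.9 ± 8.13 to 61.4 ± 17.3 FPKM in LPS+EtOH, in these directions also under median-ratio scaling.

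Among genes working beside Adh5 and the lipid aldehyde enzymes more rose than fell. Of 8 tested glutathione, formaldehyde and lipid aldehyde genes 5 rose and 2 fell in LPS+EtOH, and 6 rose and 1 fell in LPS+CPZ, where 19.0% and 20.7% of all tested genes rose and 64.6% and 48.4% fell. Their medians were 0.60 and 1.69, against -0.82 and -0.33 for all genes. Under median-ratio scaling 6 rose and 2 fell in LPS+EtOH, and 6 rose and 1 fell in LPS+CPZ, with medians of 1.78 and 2.04. There 39.9% and 28.6% of all tested genes rose and 40.1% and 32.5% fell. Esd, the esterase that releases formate in the step after Adh5, rose from 97.9 ± 26.8 FPKM with LPS alone to 321 ± 5.95 with ethanol (log2 fold change 1.74 ± 0.19, limma adjusted p = 8.12e-06), while Adh5 fell in the same libraries. Esd stood at 376 ± 31.4 in LPS+CPZ. Abcc1, the pump that exports glutathione conjugates, rose from 44.2 ± 7.10 to 112 ± 8.38 FPKM (1.33, limma adjusted p = 7.03e-06), and Gclm, a subunit of the rate-limiting enzyme of glutathione synthesis, from 15.9 ± 3.57 to 38.2 ± 4.15 (1.23, limma adjusted p = 2.92e-05).

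The other subunit gene, Gclc, stood at 44.6 ± 4.18 FPKM with LPS alone, 58.9 ± 11.6 with ethanol and 685 ± 86.1 with CPZ. Hagh and Park7, a glyoxalase II gene and the gene of the protein DJ-1, fell in LPS+EtOH from 5.12 ± 1.09 to 0.539 ± 0.123 and from 5.61 ± 1.02 to 1.54 ± 0.182 FPKM. Of 6 reference targets of NRF2, 5 rose and none fell in LPS+EtOH and in LPS+CPZ against LPS, and all 6 rose under median-ratio scaling. The shares of all tested genes that rose were 19.0% and 20.7%, or 39.9% and 28.6% under median-ratio scaling. Hmox1, the gene of heme oxygenase-1, and Srxn1, a peroxiredoxin repair gene, rose by 2.87 and 1.63 on the log2 scale in LPS+EtOH. The median of the 6 was 1.33 in LPS+EtOH and 2.21 in LPS+CPZ, against -0.82 and -0.33 for all genes. Under median-ratio scaling it was 2.49 and 2.55, against -0.01 and -0.06. In LPS+CPZ against LPS+EtOH it was 0.88, or 0.06 under median-ratio scaling, against 0.55 and 0.04 for all genes. Gclm is in this list as well as among the glutathione genes above.

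**Figure D5:**
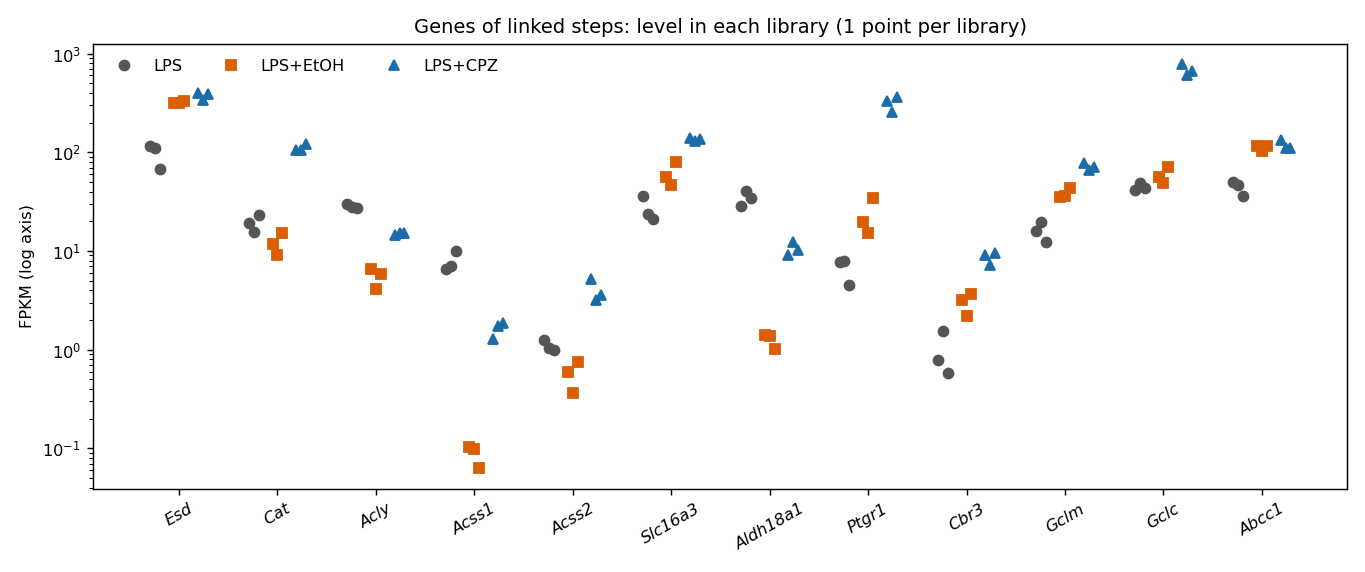
FPKM of 12 genes of linked steps in each library, on a log axis with 1 point per library. Acss1, Acly and Aldh18a1 are lowest in LPS+EtOH, Esd and Abcc1 are higher in both treated groups than in LPS, and Cat, Gclc and Ptgr1 are highest in LPS+CPZ.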

How the data were processed

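The deposited values are FPKM per gene for 9 libraries of pooled RNA, per the file headers and the labels. FastQC 0.11.2, STAR, StringTie and the build hg38 are named, without settings, in the submitters' processing notes, although 55154 of the 55335 gene IDs are in mouse GENCODE M21, so the only coordinates given are those of the RefSeq promoter table (GRCm38.p6). Aligner settings and annotation are not given in the sources used here.

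Genes that reached 1 FPKM in 3 or more libraries were tested, two-sided, as log2(FPKM + 1) with limma 3.58.1 in R 4.3.3 (1 model of group means over the 9 libraries, eBayes with trend), with Benjamini-Hochberg adjustment over all 11721 genes and a threshold of 0.05. Fold changes on this scale understate those of weakly expressed genes. The test was checked on simulated data in which no whole library was shifted, so that check does not bear on the choice of scaling. Errors are SD for levels (n = 3) and SE for log2 changes.

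The 10 genes and all lists were chosen with earlier results of these data known. All 10 genes are named. From each pathway list the text names up to 3 genes per direction past the threshold in LPS+EtOH against LPS, with no overlap and a group mean of at least 5 FPKM. Hmox1 and Srxn1 come from that rule; Acss2, Aldh1a1, Aldh1a2 and Gclc, and the marker genes named singly, were picked with their values in view. Alternatives were pseudocounts of 0.1 and 5, other filters, scaling to TPM, by median ratios or by quantiles, no eBayes trend, only the groups compared, a replicate block and leaving out each library. Leaving globin genes out of the scaling, and median-ratio scaling with a replicate block, were added after the data were seen. RefSeq gave promoters, and GENCODE M21 transcripts gave shared 50-base stretches and overlaps.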

Additional observations from a re-analysis of the deposited data

How the results depend on the processing

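The number of the 6 tested genes past the threshold was 5 in LPS+EtOH against LPS, 4 in LPS+CPZ against LPS and 6 in LPS+CPZ against LPS+EtOH. Of all tested genes 83.6%, 69.2% and 76.6% passed in these comparisons. Leaving out any 1 library gave the same numbers for the 6. In LPS+EtOH against LPS the number became 8 of 10 with all genes of any value above 0, since genes below the filter entered. There 41.8% of all genes passed. Adh1 is among the 8, but Adh1 and Cyp2e1 entered through the LPS group alone, which by itself sets them lower with ethanol. Under quantile scaling the number was 2 of 6, where 75.0% of all genes passed. The other alternatives kept each number within 1.5 times.

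Directions reversed only under scalings. In LPS+EtOH against LPS, Aldh2 was 0.70 under median-ratio scaling, with or without the replicate block, and 0.038 under quantile scaling. Aldh3a2 was 0.055 under median-ratio scaling, with or without the block. Akr1a1 was -0.0089 under TPM (limma adjusted p = 0.964) and -0.31 with globin genes left out. In LPS+CPZ against LPS, Adh5 and Aldh3a2 were -0.23 and -0.13 with globin genes left out. No direction or call differed in LPS+CPZ against LPS+EtOH, but median-ratio scaling made the 5 rises there smaller. Quantile scaling also lowered those of Adh5, Aldh2, Aldh3a2 and Aldh9a1, to 0.62, 1.01, 0.57 and 0.39, and left Akr1a1 at 1.44.

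The labels number the replicates of each group 1 to 3 but do not say that a number marks a shared pool. Correlations of deviations ran from -0.0065 to 0.26 over 9 same-numbered pairs of libraries and from -0.20 to 0.13 over 18 others. The labels of LPS+EtOH and LPS+CPZ also share the sample names S1, S2 and S3, and these pairs were at 0.064, 0.14 and 0.079. Not every same-numbered pair was above 0.1, so the numbers were not treated as pairing the samples, although a shared origin is not excluded. With the replicate block 5, 4 and 6 of the 6 tested genes passed, against 9871, 8156 and 9086 of all 11721. The fragments behind each FPKM value are not known, which limits what can be said of Adh1 and Cyp2e1. The filter of at least 5 FPKM left 5 genes tested and gave 5345, 4741 and 4993 of 6419 genes past the threshold in the 3 comparisons, against 9796, 8106 and 8980 of 11721.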
